A study of Mus musculus with 4 samples.

Results

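Phospho-CREB regions that were called after forskolin and not after vehicle, and whose centre lay more than 1 kb and at most 10 kb from a transcription start site (TSS) of a protein-coding transcript, numbered 1054. They were chosen by the peak lists themselves. The 4 lists were merged into 28335 regions wherever peaks shared at least 1 bp, and a region counted as forskolin-only where each forskolin library, and no vehicle library, had called a peak. Of all regions 5187 were forskolin-only (18.3%, Wilson 95% interval 17.9 to 18.8), and 1054 of these met the distance limits. The 1 to 10 kb band held 4302 regions of every kind, of which the 1054 made up 24.5% (23.2 to 25.8).

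The libraries came from MC3T3-E1, a pre-osteoblast line of the mouse grown in serum-containing medium. Vehicle libraries (n = 2) were from cells given DMSO for 1 h and forskolin libraries (n = 2) from cells given 100 nM forskolin for 1 h. Chromatin was immunoprecipitated with an antibody to CREB phosphorylated on serine 133, and all groups share the 1 line, so no result speaks for primary osteoblasts. The labels call the libraries biological replicates and name no separate cultures, so the spread between them may be partly technical. The data give sites and no RNA, so the identity of the cells could not be checked against marker expression.

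Forskolin activates adenylyl cyclase and raises cAMP, which frees the catalytic subunit of protein kinase A to phosphorylate CREB. Phosphorylated CREB recruits the coactivators CBP and p300, and CREB binds the palindromic cAMP response element (CRE) or its shorter core, often close to promoters. In osteoblasts parathyroid hormone acts through the same cascade, and sites a few kilobases from a TSS include introns and upstream stretches where enhancers can lie next to the promoter.

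Sequences are shown first because the members were found by position and peak calls alone, and the rule used no letters. Each runs 100 bases to either side of the region's centre in the reference, on the plus strand of mm9 and 5′ to 3′. Capitals mark the full CRE (TGACGTCA), the CRE core (TGACG) or an AP-1 site (TGAGTCA), each on either strand. A full CRE holds the core on both strands. The first 5 are among the 6 highest-ranked members with a full CRE outside exons, and they show that sequence beside the other matches in the window. They lay at chr4:149081757-149081957, chr15:101110085-101110285, chr10:127815572-127815772, chr8:12851959-12852159 and chr17:44875553-44875753 in the order printed.
Pik3cd: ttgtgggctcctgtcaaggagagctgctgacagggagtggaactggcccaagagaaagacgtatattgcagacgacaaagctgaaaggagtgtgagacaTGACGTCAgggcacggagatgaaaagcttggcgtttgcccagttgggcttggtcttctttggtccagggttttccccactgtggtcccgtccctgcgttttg
9430023L20Rik: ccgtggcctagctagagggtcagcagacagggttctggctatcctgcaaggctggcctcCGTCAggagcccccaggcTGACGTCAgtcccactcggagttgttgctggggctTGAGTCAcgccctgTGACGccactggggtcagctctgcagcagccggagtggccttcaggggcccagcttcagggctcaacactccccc
Ankrd52: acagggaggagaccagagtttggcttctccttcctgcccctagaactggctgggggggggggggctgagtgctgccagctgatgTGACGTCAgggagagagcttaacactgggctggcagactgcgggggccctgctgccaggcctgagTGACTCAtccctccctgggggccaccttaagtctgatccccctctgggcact
Atp11a: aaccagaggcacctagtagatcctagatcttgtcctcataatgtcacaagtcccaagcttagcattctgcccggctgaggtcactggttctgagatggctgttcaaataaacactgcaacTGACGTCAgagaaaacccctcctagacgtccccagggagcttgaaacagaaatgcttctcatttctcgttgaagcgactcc
Runx2: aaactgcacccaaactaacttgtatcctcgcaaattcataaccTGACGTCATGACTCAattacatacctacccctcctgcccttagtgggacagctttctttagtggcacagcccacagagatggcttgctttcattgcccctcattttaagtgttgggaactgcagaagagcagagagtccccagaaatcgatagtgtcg

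In the Runx2 window, 2056 bp upstream of the nearest TSS and in the gene's intron 1, the full CRE ran straight into an AP-1 site. It was the 1 member of the 1054 with that arrangement. The window nearest 9430023L20Rik held an AP-1 site and 2 further cores apart from its full CRE, and that nearest Ankrd52 held an AP-1 site. The next pair are the highest-ranked members with neither a CRE core nor an AP-1 site, shown because they rank high without these letters, which says only that the letters are not in the window. They lay in intron 1 of Tsc22d1 at chr14:76880362-76880562 and in intron 2 of Xdh at chr17:74291211-74291411.
Tsc22d1: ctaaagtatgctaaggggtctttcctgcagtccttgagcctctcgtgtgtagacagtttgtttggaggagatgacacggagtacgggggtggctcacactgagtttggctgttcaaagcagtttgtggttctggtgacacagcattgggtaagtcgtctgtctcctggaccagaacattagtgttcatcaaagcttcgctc
Xdh: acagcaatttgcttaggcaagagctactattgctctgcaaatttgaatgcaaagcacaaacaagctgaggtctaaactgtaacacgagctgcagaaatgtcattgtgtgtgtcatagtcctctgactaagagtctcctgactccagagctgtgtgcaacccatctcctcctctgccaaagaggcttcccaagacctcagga

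The highest-ranked member of all, near Palld at chr8:64247283-64247483, and the member upstream of Fos at chr12:86809729-86809929 are shown as examples without a full CRE. Both were added after their values were seen. In the first, a core and an AP-1 site stood 3 bases apart, and in the second 1 core lay near the edge of the window.
Palld: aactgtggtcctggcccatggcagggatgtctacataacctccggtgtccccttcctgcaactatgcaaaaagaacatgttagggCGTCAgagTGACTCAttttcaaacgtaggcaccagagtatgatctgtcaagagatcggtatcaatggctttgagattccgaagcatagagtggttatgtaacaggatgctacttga
Fos: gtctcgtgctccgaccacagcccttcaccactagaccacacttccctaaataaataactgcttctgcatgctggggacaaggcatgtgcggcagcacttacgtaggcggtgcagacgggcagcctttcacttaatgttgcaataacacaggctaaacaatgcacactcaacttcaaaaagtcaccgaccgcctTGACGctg

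A BLAST search of 26 windows, which include the 20 highest-ranked members and those printed, found 0 other matches of at least 100 bp and 90% identity in the genome.

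The share of regions that were forskolin-only depended on distance mainly at promoters. It was 6.08% (5.62 to 6.56) of the 9827 regions within 1 kb of a TSS, 24.5% from 1 to 10 kb, and 24.9% (24.2 to 25.6) of the 14206 beyond 10 kb. Within the band it ranged from 21.6% (17.7 to 26.1) at 9 to 10 kb to 30.5% (26.4 to 34.9) at 3 to 4 kb. The 0.5 to 1 kb bin lay between the promoter and the band at 13.4% (11.4 to 15.7). Regions called in all 4 libraries went the other way, from 63.9% of regions within 0.5 kb to 19.9% at 1 to 2 kb. These shares describe how the members were chosen, so no test applies to them.

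**Figure D1:**
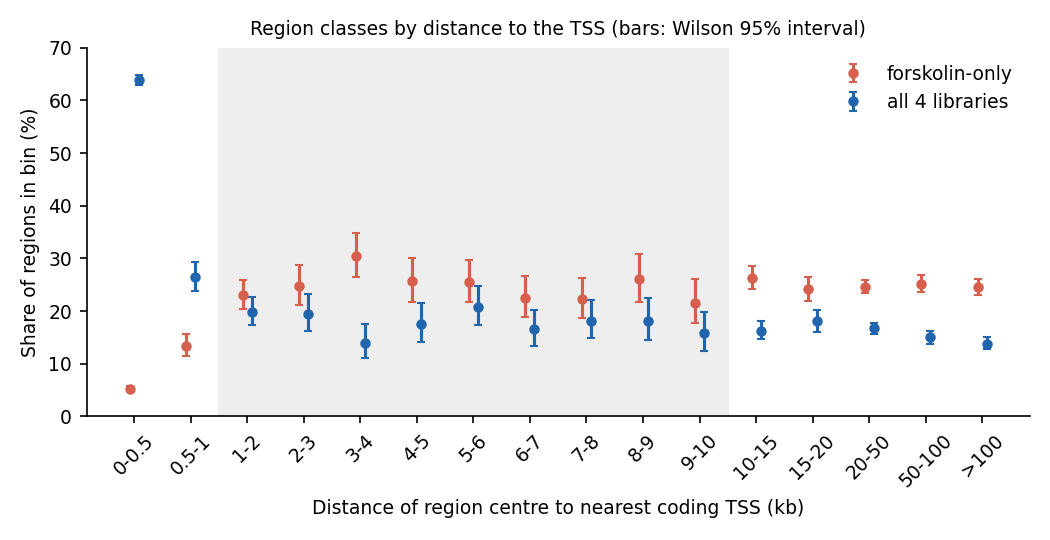
Share of the regions in each distance bin (kb, x axis) that were forskolin-only (red) or called in all 4 libraries (blue), in percent, with Wilson 95% intervals; the grey band marks 1 to 10 kb. The forskolin-only share stands at 5.27% within 0.5 kb and between 21.6% and 30.5% across the grey band.

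The band took a larger part of each forskolin list, where the rule itself places the members. Of the peaks in the vehicle lists 11.2% and 9.91% had their own centre 1 to 10 kb from a TSS, and of those in the forskolin lists 14.7% and 14.0%. The groups did not overlap, with means of 14.3% ± 0.546 and 10.6% ± 0.936 (SD, n = 2 each), a difference of 3.77 percentage points. The two-sided exact permutation p was 0.333, the smallest that 2 libraries against 2 can give. The rule puts the members in this band and in the forskolin lists only, and they held 1049 of the 3765 such peaks of forskolin replicate 1 and 1048 of the 2703 of replicate 2. Without the members' peaks the forskolin shares were 11.1% and 9.04%, overlapping the vehicle shares, with a difference of -0.516 points (exact permutation p = 0.667). Leaving out the members' peaks was bound to lower the forskolin shares, so that comparison cannot show whether the rest of the lists differed. Without the peaks of forskolin-only regions at every distance the forskolin shares were 13.3% and 11.6%. They did not overlap the vehicle shares, with a difference of 1.90 points (exact permutation p = 0.333). Here too peaks were taken from the forskolin lists only, by the classes the rule used. This comparison therefore cannot show whether the rest of the lists differed either. Both comparisons were added after the data were seen. The 3.77 points include the members and are a description of them, not a separate result.

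The lists also differed in length and in the step of their scores. Vehicle replicates 1 and 2 had 14686 and 10180 peaks, and forskolin replicates 1 and 2 had 25566 and 19371. Low scores fell on multiples of 0.232, 0.224, 0.239 and 0.688 in that order. If a step is 1 sequenced tag, forskolin replicate 2 had 0.347 of the depth of replicate 1. What part depth played in the calls was not tested. A missing vehicle peak means that none was called, not that no phospho-CREB was there.

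Every member was 1 peak of each forskolin list and had no vehicle value. The authors' score of a member had its lowest value at 5, its median at 13.8 and its highest at 235 in forskolin replicate 1. In replicate 2 the lowest was 4.1, the median 11.7 and the highest 134. Since the scale of the scores is not stated, they were read as percentiles, the share of that list's peaks that scored lower with ties counted at their mid-rank. The median member stood at the 46.3rd percentile of replicate 1 and the 36.4th of replicate 2. Both percentiles were above 90 in 24 members, above 50 in 307 and below 10 in 30, so the class runs from some of the strongest peaks of a list to its weakest. Across the 1054 members the ranks of the lists went together, with a Spearman rho of 0.67 and a Pearson r of 0.71. Both were lower than over the 779 regions of all 4 libraries in the band, where the forskolin lists gave 0.87 and 0.81. The centres of a member's paired peaks lay a median of 39 bp apart, and at most 50 bp apart in 620 members.

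**Figure D2:**
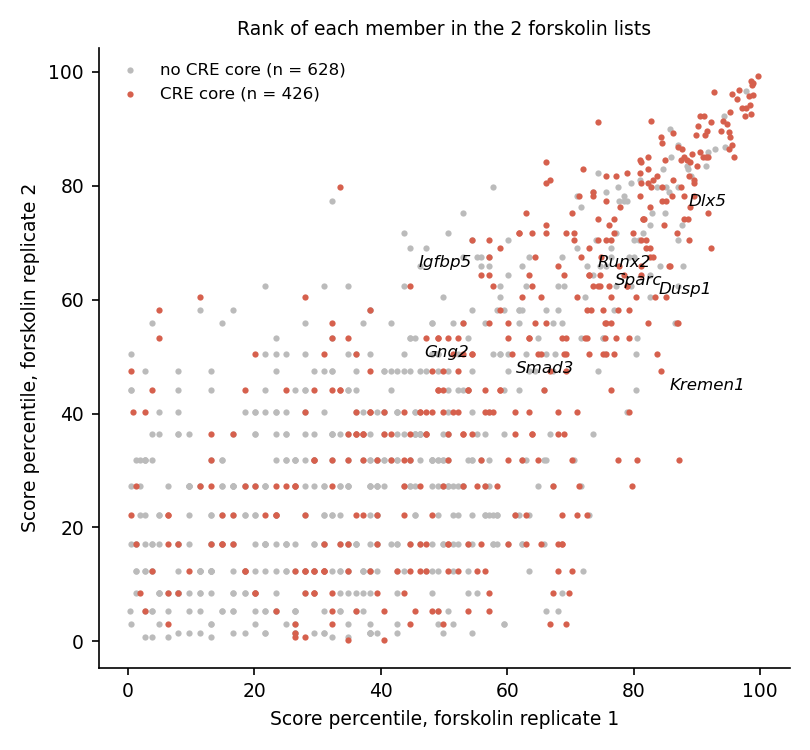
Each point is 1 of the 1054 members at its score percentile in forskolin replicate 1 (x axis) and replicate 2 (y axis), red where the sequence within 100 bp of the centre holds the CRE core (426) and grey where they do not (628). Red points are densest at the upper right, gene names sit to the lower right of their points, and rows and columns of points are tied scores.

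Few members had a vehicle peak within 500 bp, and no background distance was computed. The gap from a member to the nearest vehicle peak had a median of 11613 bp (quartiles 5439 and 31967), and 19 members had one within 500 bp. Those 19 included Anxa13 and Aagab among the 20 highest, with vehicle peaks 138 and 20 bp from the region's edge. Regions called in all 4 libraries lay within 10 kb of 311 members, and another member lay within 10 kb of 113.

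The 20 highest-ranked members, ordered by the lower of the 2 percentiles and taken once per gene, covered percentiles from 91.2 up to 99.3. This order is the one that selected them, so their values are a description. The first lay 8497 bp upstream of a TSS of Palld, in intron 1 of this gene, which has several start sites. Its scores were 234.9 and 134.2 in forskolin replicates 1 and 2 (percentiles 99.7 and 99.3), and the nearest vehicle peak was 105335 bp away. Palladin organises actin bundles. Egfl7, which encodes a secreted factor of blood vessels, had a member 6617 bp upstream with scores of 133.9 and 101.2 and no vehicle peak within 30132 bp of it.

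Several of the 20 lay near genes of the cytoskeleton or of membrane traffic, a grouping made after the genes were seen and not tested. Tagln2, an actin-binding transgelin, had a member in intron 1 with scores of 59.0 and 46.8. Mzt2, a component of the gamma-tubulin complex, had one 4000 bp upstream with scores of 151.6 and 68.8. Necap1, of clathrin-mediated endocytosis, had one 4658 bp upstream with scores of 136.8 and 52.3. Aagab, which helps to assemble adaptor complexes, had one 8930 bp downstream with scores of 144.4 and 88.8. The scales of the lists may differ, so a score of replicate 1 is not compared with one of replicate 2.

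Signalling and secreted factors made up another part of the 20. The member near Cmklr1, the chemerin receptor, lay 4542 bp upstream and scored 130.1 and 67.5. That near Ppbp, a platelet chemokine precursor, lay 4448 bp upstream and scored 94.5 and 79.2. Crispld2, a secreted protein, had one 4272 bp upstream of its nearest TSS with scores of 83.5 and 71.6, and a second lower one 4430 bp downstream. Tsc22d1, a leucine zipper protein first found as a TGF-beta responsive gene, had a member 7781 bp upstream with scores of 116.7 and 76.4.

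Enzymes and chromatin or ubiquitin factors completed the list. Dhrs3, which reduces retinaldehyde, had a member 9529 bp upstream (131.3 and 58.5), Xdh, xanthine dehydrogenase, one 8167 bp downstream (72.1 and 50.3), and P4ha3, a collagen prolyl hydroxylase subunit, one 8778 bp downstream (70.4 and 47.5). Aebp2, a cofactor of Polycomb complex PRC2, had one 1734 bp upstream (61.6 and 73.7), and Fbxo31, an F-box protein of a ubiquitin ligase, one 8367 bp downstream (80.4 and 53.0). The member nearest Gapdh, the glycolytic enzyme, scored 103.3 and 56.5 but lay in a UTR exon of its neighbour Iffo1. The remaining genes were Anxa13 (152.5 and 92.9), Cmtm7 (111.9 and 50.3), Fos and Gadd45b.

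Of these 20 members 18 held the CRE core, 5 an AP-1 site and 8 a RUNX site, and 0 held the full CRE. Over all 1054 members the shares were 40.4%, 21.5%, 35.3% and 3.13%. By position 12 were upstream of their TSS, 9 lay in introns and 10 were intergenic, against 47.5%, 58.4% and 38% of all members. The nearest gene's promoter had a region of all 4 libraries in 6 cases and no region of any class in 8, against 27.7% and 47.1%. The 20 were picked by rank and are few, so no difference is called.

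At the 1 kb limit the closest member was 1001 bp upstream of Larp1b, with percentiles of 31.0 and 40.3, and the closest forskolin-only region left out was 999 bp upstream of Aldh18a1, with 45.5 and 27.2. At the 10 kb limit the last member was 9999 bp downstream of Tmem30b (67.2 and 47.5) and the first left out 10016 bp upstream of Prtg (74.6 and 64.3).

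Introns held more of the members than of the shared regions in the band. Of the 1054 members 616 lay in introns (58.4%, 55.4 to 61.4), 400 were intergenic, 24 lay in coding exons and 14 in UTR exons. Among the intronic members 396 were in intron 1 of their nearest gene, 177 in a later intron and 43 only in an intron of another gene. Of the 779 regions of all 4 libraries in the same band 42.4% were intronic, a difference of 16.1 percentage points (Newcombe 95% interval 11.5 to 20.6). The intervals treat regions as independent and describe these libraries. Intronic members were also more frequent than among forskolin-only regions beyond 10 kb, by 17.2 points (13.8 to 20.6). The rule separates these classes by distance from a TSS, and what part of that difference follows from distance was not tested. Members exceeded regions of both forskolin and 1 vehicle library by 5.4 points (0.2 to 10.7). Regions of 1 library, the largest class of the band, were 54.6% intronic, and that difference of 3.9 points had an interval that reached 0 (0.0 to 7.7). The shared regions thus stood further from the members than the other classes of the band did.

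By side, 501 members were upstream of their nearest TSS (47.5%, 44.5 to 50.6) and 553 downstream. Regions of all 4 libraries were upstream more often, at 56.1%, which put the members -8.6 points from them (-13.1 to -3.9). The other classes of the band were close to the members, with 48.2% upstream both in regions of both forskolin and 1 vehicle library (difference -0.7 points, -6.0 to 4.6) and in regions of 1 library (-0.7, -4.5 to 3.2). The distance from the TSS had a median of 4654 bp in the members. Being upstream and intronic is compatible where a gene has several start sites or lies within another gene, as 155 members were.

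**Figure D3:**
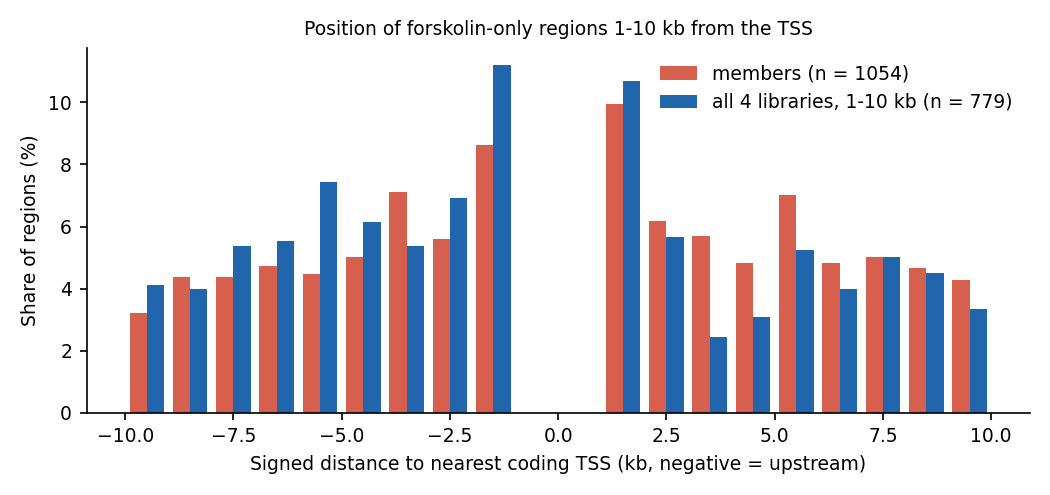
Share of the 1054 members (red) and of the 779 regions of all 4 libraries in the band (blue) in each 1 kb bin of signed distance to the nearest TSS (kb, negative upstream), in percent; the empty centre is the excluded 1 kb on each side. Members exceed the blue bars most plainly at 3 to 4 kb downstream, with 5.69% against 2.44%.

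Most members stood near genes whose own promoter had no region called in all 4 libraries. Of the 1054, 292 (27.7%, 25.1 to 30.5) had a nearest gene with a shared region (one called in all 4 libraries) no more than 1 kb from one of its TSSs, 266 had only another class there, and 496 (47.1%) had no region there. Shared regions of the band were close to this, with 29.8% and 44.5%, and the differences of -2.1 points (-6.3 to 2.1) and 2.5 points (-2.1 to 7.1) included 0.

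The CRE core was more frequent at the members' centres than in their own flanks. Within 100 bp of the centre 426 members held it (40.4%, 37.5 to 43.4), against 7.0% of 2057 equally long windows placed 2 kb upstream or downstream. The full CRE was found in 33 members (3.13%, 2.24 to 4.36) and in 0.292% of flanks. AP-1 sites, bound by Fos and Jun family dimers, were in 227 members (21.5%, 19.2 to 24.1) and in 3.6% of flanks. RUNX sites (TGTGGT), bound by Runx2 and its relatives, were in 372 (35.3%, 32.5 to 38.2) and in 16.2% of flanks. Over all 28335 regions the shares were 29.1% for the core, 3.53% for the full CRE, 13.8% for AP-1 and 24.2% for RUNX.

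Members held AP-1 and RUNX sites more often than shared regions at the same distance. In the 779 regions of all 4 libraries in the band AP-1 sites were found in 10.0%, a difference of 11.5 points (8.2 to 14.7), and RUNX sites in 21.6%, a difference of 13.7 points (9.6 to 17.7). The core was found in 36.8%, and that difference of 3.6 points had an interval that included 0 (-0.9 to 8.0). The full CRE was less frequent in members, by -2.5 points (-4.6 to -0.6), and the GC box (GGGCGG), bound by Sp-family factors, by -12.1 points (-15.4 to -8.8). Median GC content was 50.2% in members and 54.7% in the shared regions. In the shared regions the median percentiles of the forskolin peaks were also higher, at 72.6 and 65.9.

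The core difference depended on which libraries and peaks entered. With an equal number of top peaks from each list it was 20.5 points (13.4 to 27.3). Equal numbers kept all peaks of vehicle replicate 2 and only the top part of the other lists. What part this played in the value was not tested. With the top 50% of each list the core difference was 5.2 points, and the interval included 0 (-2.2 to 12.5). Without forskolin replicate 2 it was -3.6 points (-7.4 to 0.1). Without forskolin replicate 1 it was -3.1 points, without vehicle replicate 1 -1.0, and without vehicle replicate 2 7.6 (3.7 to 11.5). The AP-1 difference ran from 7.3 to 14.7 points over the same settings and the other window sizes, with each interval above 0. The full CRE difference was -1.2 points without vehicle replicate 2, where its interval included 0 (-2.8 to 0.4). These comparisons were added after the data were seen and were not run for the RUNX site.

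**Figure D4:**
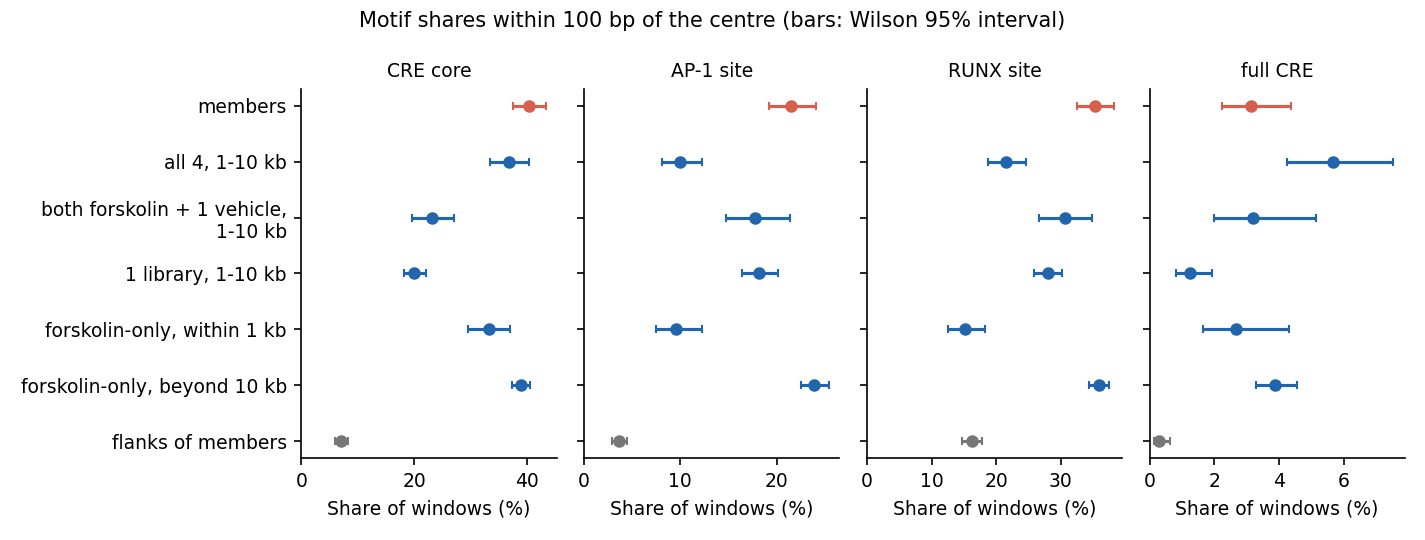
Share of windows within 100 bp of the centre (percent, x axes starting at 0) holding each motif, with Wilson 95% intervals, for the members (red), 5 other region classes (blue) and the flanks of the members (grey). Members stand above regions of all 4 libraries for AP-1 and RUNX sites and below them for the full CRE.

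Forskolin-only regions at other distances gave a further comparison. Against the 3536 beyond 10 kb the differences were 1.5 points for the core (-1.9 to 4.9), -2.4 for AP-1 (-5.2 to 0.5) and -0.6 for RUNX (-3.8 to 2.7), all with intervals that include 0, and 3.0 for the GC box (1.2 to 4.9). Against the 597 within 1 kb of a TSS members had the core more often by 7.3 points (2.4 to 12.0), AP-1 by 12.0 (8.5 to 15.3) and RUNX by 20.1 (15.9 to 24.0), and the GC box less often by -29.2 (-33.5 to -25). Regions of the band called in both forskolin and 1 vehicle library held the core in 23.2%, which is 17.2 points below the members (12.3 to 21.8), and AP-1 in 17.8%, where the difference of 3.7 points included 0 (-0.6 to 7.8). RUNX sites were in 30.6% of these regions, and the difference of 4.7 points also included 0 (-0.3 to 9.6). In regions of 1 library the core was found in 20%, AP-1 in 18.2% (difference 3.4 points, 0.3 to 6.5) and RUNX in 28% (7.3 points, 3.7 to 10.9).

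The core and the AP-1 site were mostly found in different members. Both were present in 82 members (7.78%), 1 or the other in 571 (54.2%) and neither in 483 (45.8%). The core was in 36.1% of members with an AP-1 site and in 41.6% of those without, with Wilson intervals that overlap (30.2 to 42.6 and 38.3 to 45). RUNX sites were in 193 of the 483 with neither (40%). Neither the core nor the AP-1 letters contain the other, and every full CRE is also counted as a core.

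Higher-ranked members held the core more often. Among the 351 highest-ranked members it was in 61.0% (55.8 to 65.9), among the next 351 in 33.0% (28.3 to 38.1) and among the lowest 352 in 27.3% (22.9 to 32.2). AP-1 sites showed no such order, at 23.4%, 18.8% and 22.4%. The full CRE was in 4.84%, 2.56% and 1.99%, and RUNX sites in 38.2%, 35.3% and 32.4%. The core share was nearly the same in members below and above the median GC content (41.7% and 39.1%), upstream and downstream (39.9% and 40.9%), and in introns and between genes (39.8% and 40.2%), with overlapping Wilson intervals in each pair. The rank used to make these groups came from the same peaks, so they describe the members. A higher core share among stronger peaks was not particular to the members. Regions of all 4 libraries in the band held the core in 52.9% with the top 50% of each list, against 36.8% with the full lists.

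Matches clustered at the region centres. Within 60 bp of the centre the core occurred 3.43 times per kb and 200 to 500 bp away 0.365 times, a ratio of 9.39. For AP-1 the densities were 1.38 and 0.239 (ratio 5.79), and for RUNX 2.34 and 0.843 (ratio 2.78). The 503 cores within the windows continued to the full CRE in 34 cases and to TGACGTCT in 28, TGACGTGG in 23 and TGACGCAG in 22, so full palindromes were 6.76% of cores. Of all CpGs in the windows, 10.6% lay in a core, against 2.5% in the flanks and 5.68% in regions of all 4 libraries in the band. Among all 6-letter sequences within 50 bp of the centres the largest ratios to the flanks belonged to ATGACG (10.7% of members against 0.681%) and the core followed by C (9.01% against 0.632%).

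**Figure D5:**
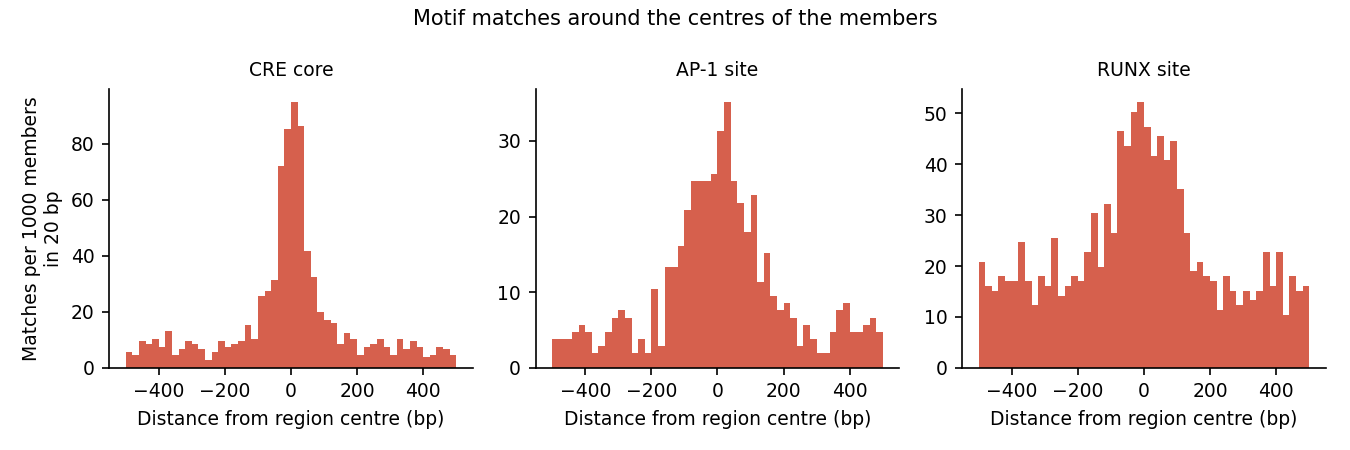
Matches of the CRE core, AP-1 site and RUNX site per 1000 members in 20 bp bins of distance from the region centre (bp, x axis). All 3 profiles are highest near the centre, and the y axes differ in scale.

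Library by library, whether the core separated the treatments depended on how many peaks of each list entered. Of a library's peaks with centres 1 to 10 kb from a TSS 24.1% and 33.3% held the core in vehicle replicates 1 and 2 and 29.6% and 33.1% in forskolin replicates 1 and 2. The groups overlapped, with a difference of 2.63 points and an exact two-sided permutation p of 1. With an equal number of top peaks from each list the shares were 30% and 33.3% in vehicle and 50% and 48.5% in forskolin libraries. They did not overlap, with a difference of 17.6 points at the smallest possible exact permutation p of 0.333. Equal numbers kept all peaks of the shortest list, vehicle replicate 2, and only a part of the others. With the top 50% of each list the shares were 37% and 49.4% in vehicle and 43.8% and 50.1% in forskolin libraries. These overlapped, with a difference of 3.76 points (exact permutation p = 0.667). The members' peaks stayed in both settings. Without the members' peaks, in the full lists, the difference was -1.27 points (exact permutation p = 1). AP-1 sites were in 11.9% and 9.91% of vehicle and in 17.5% and 15.8% of forskolin peaks, without overlap, a difference of 5.71 points with the smallest possible exact p of 0.333. Without the peaks of the members the forskolin shares for AP-1 were 16.2% and 12.8%. The members' peaks were left out of the forskolin lists only, so neither comparison without them can show whether the rest of the lists differed. The AP-1 comparison was added after the data were seen.

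The members had 960 nearest genes, which is 29.7% of the 3233 genes nearest to any region of the band. Of these 876 had 1 member, 74 had 2 and 10 had 3. The 10 were Ahnak, a large scaffold protein, Arid5b, a DNA-binding cofactor, Bcar1, a focal adhesion adaptor, Chst3, a chondroitin sulfotransferase, Lrp8, a lipoprotein receptor, P4ha3, Pyroxd2, Rhbdf2, an inactive rhomboid, Rxra, the retinoid X receptor alpha, and Ryk, a Wnt co-receptor. Their 30 members had a median lower percentile of 29.5 against 31.4 over all members. The core was in 14 of the 30, against 40.4% of all members. In P4ha3 the 3 members had lower percentiles of 91.4, 71.8 and 65.9, the highest trio of the 10 genes by its lowest value. Rhbdf2, whose highest member ranked lowest among the 10 genes, had 15.0, 5.3 and 3.0.

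Gene lists were counted against the same 29.7%. Of 28 immediate early genes with any region in the band 10 (35.7%) had a member: Fos, Egr1, Ier2, Zfp36, Zfp36l1, Dusp1, Gadd45b, Nfil3, Cebpb and Sgk1. All 10 of their highest members were intergenic, against 38% of all members, and 7 were upstream, against 47.5%. A second, lower-ranked member of Ier2 lay in a UTR exon of that gene, 1122 bp downstream. With 10 genes these are not called differences. The lower percentiles of the 10 highest members had a median of 75.5, against 31.4 over all members. Taking a gene's highest member raises such a median. The member 5011 bp upstream of Fos, the AP-1 subunit, scored 91.2 and 64.0 in the 2 forskolin replicates. Gadd45b, a stress-induced growth arrest gene, had one 5942 bp downstream at 113.4 and 56.5. Both lay near a shared region, 4906 and 3892 bp away.

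The other immediate early genes among them differed in their promoters. Ier2, an immediate early nuclear protein, had a member 1220 bp upstream with scores of 51.6 and 44.7 and a shared region at its promoter. The vehicle peak nearest to it was 872 bp away. Zfp36, which destabilises AU-rich mRNAs, had one 3796 bp upstream (56.3 and 42.7) and no region at its promoter. Nfil3, a bZIP repressor, had one 1021 bp upstream (42.7 and 36.5), also with no promoter region. Dusp1, a MAP kinase phosphatase, had one 6350 bp upstream (34.8 and 18.6) with an AP-1 site and no core, and Zfp36l1 one 2598 bp upstream (22.7 and 14.5) with a core. Egr1, Cebpb and Sgk1 had the lowest-ranked members of the 10, with lower percentiles of 17.1, 20.1 and 17.1, and were the 3 with neither a core nor an AP-1 site.

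Of 18 cAMP signalling genes with any region in the band 8 (44.4%) had a member. Adcy7, an adenylyl cyclase, had one 1886 bp upstream in an intron at scores of 38.0 and 25.5, and Crtc1, a CREB coactivator, one 8337 bp upstream at 16.2 and 16.5. Pde4d, which degrades cAMP, had one 3252 bp upstream of a TSS in intron 5 at 25.1 and 15.1, and Gng2, a G-protein gamma subunit, one at 13.6 and 15.1. The other members of this list were nearest to Prkacb, Prkar1b, Akap13 and Rapgef3. A core was found in 3 of the 8 and an AP-1 site in 0, against 40.4% and 21.5% of all members.

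Of 18 osteoblast lineage and matrix genes 5 (27.8%) had a member, near Runx2, Sp7, Dlx5, Alpl and Sparc. Runx2, the master regulator of the lineage, had scores of 25.3 and 20.7 at the member shown above. Dlx5, a homeodomain factor, had one 2842 bp upstream with a core (43.4 and 27.5), and Sparc, osteonectin, one in intron 1 with neither a core nor an AP-1 site (27.4 and 19.3). None of the 5 genes had a shared region at its promoter, against 27.7% of all members. With 5 genes this is not called a difference. Of 18 parathyroid hormone responsive genes 5 (27.8%) had a member: Mmp14, Lif, Il11, Fst and Lrp6. The member 2042 bp upstream of Il11, an interleukin 6 family cytokine, held both a core and an AP-1 site and scored 49.4 and 28.2.

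Of 29 genes of Wnt, BMP and TGF-beta signalling 6 (20.7%) had a member. All 6 of these members were in introns, as were 58.4% of all members. Lrp6, the Wnt co-receptor and also in the preceding list, had one in intron 12 at 39.9 and 19.3. Wnt5b, a ligand, had one 6886 bp downstream at 22.2 and 17.9, Smad3, a TGF-beta effector, one at 18.4 and 14.5, and Kremen1, a Dickkopf receptor, one at 37.5 and 13.8. Tgfb2 was another. Of 21 growth factor and cytokine genes 7 (33.3%) had a member, and Igfbp5, an IGF-binding protein, was highest by the lower of its percentiles (44.6 and 69.0, scores 13.4 and 20.7). These lists are small, and their shares lie on both sides of 29.7%, so no list is called different from the rest. Of 7 housekeeping CREB targets 3 had a member, of 3 chondrocyte genes 0, and of 1 adipocyte and 1 muscle gene with any region each had 1, Adipoq and Myh3.

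The 39 genes of these first 6 lists had a core in 19 of their highest members, an AP-1 site in 7 and neither in 17. Over all members these shares were 40.4%, 21.5% and 45.8%. The lower percentiles of the 39 had a median of 44.6, against 31.4 over all 1054 members. Where a gene had several members its highest was taken, which raises such a median.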

How the data were processed

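The deposited files hold 1 peak list per library. Each peak has coordinates and the authors' deposited score, whose scale is not stated. The lists name mm9, and Bowtie and HOMER are named in the submitters' processing notes without versions. No label or header gives calling thresholds or read totals, so depth is unknown, and an input of another series was not used here. Groups follow the sample titles. Members, gene lists and motifs were chosen with earlier results of these data known.

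Peaks were merged at 1 bp and classed by library. Distances run to TSSs of transcripts typed protein-coding in GENCODE M1 on NCBIM37, the same build as mm9. Both strands were scanned for motifs up to 100 bp from each centre and in flanks 2 kb away. Shares have Wilson and differences Newcombe 95% intervals, which cover counting error only, and libraries were compared with exact permutation tests. Merging and classing were tested on simulated data. The genes named were those nearest the 20 highest-ranked members, those with 3 or more members, those at the distance limits and those of the printed sequences. Of the first 6 lists up to 20 genes were described with scores, in order of the lower percentile. Other list genes with a member were named beside some counts. Cebpd and Spi1 matched no symbol. A list gene and a member's sequence are not reported here. No label pairs libraries of the same replicate number, and the main tests did not pair them. Deviations of same-numbered libraries correlated at 0.21 over 779 shared regions, so whether they were paired remains unknown. Alternatives changed overlap, list length, TSS set, window size and libraries. Tools were Python 3.11.15, numpy 2.4.6, scipy 1.17.1, pysam 0.24.0, matplotlib 3.10.9 and BLAST 2.17.0.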

Additional observations from a re-analysis of the deposited data

How the results depend on the processing

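Of the values recomputed under an alternative, 75 stayed within the limits set for a move (1.5 times for a count, the Wilson interval for a share, the sign for a difference between libraries), 28 moved beyond them and 4 changed sign. The number of members, 1054, was 551 with the top 50% of each list and 323 with an equal number of top peaks; all annotated TSSs gave 1454, and leaving out a library 1129 to 2200, the latter without forskolin replicate 2. Their share of the band was 22.9% with 50% overlap, 30.7% with the top 50%, 16.6% with equal lists, and 26.4% to 55.3% without a library. The full CRE was in 6.35% with the top 50% and in 2.18% within 50 bp (2.36% to 3.37% without a library). The core was in 58.1% with the top 50%, 67.2% with equal lists, 31.0% within 50 bp and 44.9% within 150 bp (30.9% to 39.5% without a library). AP-1 sites were in 12.8% within 50 bp and 27.7% within 150 bp. With equal lists 51.1% were upstream. With the TSSs of all annotated transcripts 55.0% were intronic. Nearest promoters with a shared region were 16.9% with the top 50%, 23.2% with equal lists, 31.2% with all transcripts of coding genes, 24.4% with all annotated transcripts, and 28.9% to 35.0% without a library. The difference in the band's share of a library's peaks was 3.11 to 4.43 points without a library. It was 1.94 with equal lists, -0.516 without the members' peaks and 1.9 without all forskolin-only peaks. The difference in core share per library, 2.63 points, was 17.6 with equal lists (exact permutation p = 0.333) and 3.76 with the top 50% (exact permutation p = 0.667). It was -1.96 without vehicle replicate 1, -1.27 without the members' peaks and -1.22 without all forskolin-only peaks, and 0.904 to 7.22 without another library. The cause of these shifts was not tested. With the replicate block the differences were 3.77 points (exact paired permutation p = 0.5) and 2.63 points (p = 1). The value of 0.5 is the smallest that 2 pairs can give, so the block could change no call.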
